A study of Mus musculus with 63 samples.

Results

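The interferon response genes described here are 39 genes of the mouse interferon system, taken as a list of gene symbols, of which 36 had a probe among the 14541 genes that the platform table names. They comprise 8 transcription factors, 4 genes of RNA sensing and the ubiquitin-like ISG15 system, 19 antiviral effectors, 6 genes of antigen processing and 2 chemokines. Trim25, Ifi44 and Tap1 had no probe under their symbol or gene number, which left 3, 18 and 5 measured genes in their roles. Where a gene had several probes, the probe with most values stood for it. Every one of the 36 genes was tested in every comparison.

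The arrays compared RNA of cultured skin keratinocytes from newborn CD-1 mice, wild type (WT) or total knockout (KO) for the epidermal growth factor receptor EGFR, with a universal mouse reference RNA pooled from 11 cell lines. Cells were mock-treated or transduced with the v-rasHa oncogene (ras) and cultured for 4 days, and some received 1 of 3 EGFR kinase inhibitors, AG1478, erlotinib or PD153035, each at 1 µM for 2 hours. The 13 groups were WT mock (4 samples), WT mock with each inhibitor (5 each), WT ras (5), WT ras with each inhibitor (5 each), KO mock (3), KO ras (5), and KO ras with AG1478 (6), erlotinib (4) or PD153035 (5). All groups share the strain, the age and the primary culture, and the series holds no KO mock cells with an inhibitor.

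Interferons signal through paired receptors and Janus kinases to transcription factors that enter the nucleus. A complex that holds STAT2 and IRF9 binds the interferon-stimulated response element (ISRE), while interferon gamma acts on genes with a gamma-activated site (GAS). The induced genes encode sensors, inhibitors of viral replication, and the proteasome subunits, transporters and class I light chain that display peptides to T cells. Keratinocytes keep low tonic expression of such genes and raise it when they sense foreign nucleic acid.

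Promoter windows from RefSeq (GRCm38.p6) are shown for the genes called below that had one, B2m, Irf2 and Ifih1, and for Isg15 as a gene with a textbook element. Each run is the 250 bases before the transcription start, 5′ to 3′ on the gene's strand, in lower case. Capitals mark matches to an ISRE core, GAAA and GAAA parted by any 2 bases on either strand, or to a GAS core, TTC and GAA parted by any 3 bases, which reads the same on both strands.
B2m, chr2:122147437-122147686, plus strand: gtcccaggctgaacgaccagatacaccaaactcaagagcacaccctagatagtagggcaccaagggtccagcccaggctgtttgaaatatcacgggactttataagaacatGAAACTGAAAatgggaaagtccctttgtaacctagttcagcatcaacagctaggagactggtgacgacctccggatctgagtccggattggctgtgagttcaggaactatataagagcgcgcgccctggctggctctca
Irf2, chr8:46739495-46739744, plus strand: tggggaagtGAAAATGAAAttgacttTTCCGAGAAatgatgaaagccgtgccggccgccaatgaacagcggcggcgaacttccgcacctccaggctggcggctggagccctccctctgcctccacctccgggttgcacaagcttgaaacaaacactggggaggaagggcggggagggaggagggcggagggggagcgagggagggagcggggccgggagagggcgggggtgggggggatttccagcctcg
Ifih1, chr2:62646256-62646505, minus strand: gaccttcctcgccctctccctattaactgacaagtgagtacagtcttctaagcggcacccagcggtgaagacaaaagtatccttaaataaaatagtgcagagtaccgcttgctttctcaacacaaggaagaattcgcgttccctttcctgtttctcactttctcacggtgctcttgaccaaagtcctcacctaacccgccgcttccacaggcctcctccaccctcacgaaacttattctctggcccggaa
Isg15, chr4:156200819-156201068, minus strand: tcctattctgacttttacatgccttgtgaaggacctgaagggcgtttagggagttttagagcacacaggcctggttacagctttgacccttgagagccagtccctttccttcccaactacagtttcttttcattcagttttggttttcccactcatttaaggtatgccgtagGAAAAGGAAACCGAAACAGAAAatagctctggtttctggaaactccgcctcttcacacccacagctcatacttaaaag
The B2m window held 1 ISRE core, from 139 to 130 bases before the start. Irf2 had an ISRE core from 241 to 232 bases and a GAS core from 224 to 216 bases before the start. Isg15 held 3 overlapping ISRE cores between 78 and 57 bases before the start, and the Ifih1 window held neither motif. Among the 39 listed genes, 33 had a window in the table, 42 windows in all, and no window was listed for Ifi204. An ISRE core lay in 12 of these windows (28.6%), against 2.98% of 32851 windows of all genes. A GAS core lay in 8 (19.0%), against 7.02% of all windows.

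Values are log ratios of sample over reference as the authors deposited them. Their log base is not stated there, and they are taken as log2. A difference of 1 is then a doubling of the ratio. The ratio says nothing about a gene's absolute level, so genes are not ranked against each other. "Called" means an adjusted p under 0.05 in limma with Benjamini-Hochberg adjustment over the probes of that comparison. Differences come from a fit with a term for dye order and can depart slightly from the difference of 2 group means. Overlap between groups was read for members only, with no share over all probes, so it describes the samples and is not a test. On 2 arrays, KO ras with AG1478 repeats 3 and 4, the direction of the ratio disagreed with the labels (their correlations with the typical forward array were -0.83 and 0.805). For the members, every comparison with that group is therefore also given by the labels' direction. Second probes and pathway genes are given by the correlation's direction only. In that direction, keratinocyte markers exceeded leukocyte markers on 63 of 63 arrays, by 1.92 to 6.17. The labels' direction reverses this order on the 2 disputed arrays. The 2 Egfr probes were called in none of the 5 KO against WT comparisons (smallest adjusted p 0.291 in limma, medians 2.27 in WT and 2.03 in KO for one probe, 1.05 and 0.42 for the other). Whether these probes lie in the deleted part is not given, so they do not check the genotype. Against the reference, the median keratinocyte marker was higher in every group (group means 2.57 to 4.22) and the median leukocyte marker lower (-1.20 to -0.68), which depends on what the reference cells express. The experiment numbers form 8 runs. No run is shared between KO and WT in mock or in untreated ras cells, between KO ras and KO mock, between WT ras with and without any inhibitor, or between WT ras and WT mock under an inhibitor. The same holds for KO ras with AG1478 or PD153035 against KO ras, and for erlotinib against either other inhibitor in ras cells. In all these comparisons the condition and the run cannot be told apart. Nothing beyond a general statement of biological replicates ties samples to separate animals, so p-values cover only sample-to-sample spread, part of which could be technical.

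The median of the 36 log2 ratios in a sample had a group mean between -0.57 and -0.34, with SDs from 0.08 to 0.31 within groups, so the span of the group means was smaller than the largest within-group SD. Samples ran from -0.97 to 0.05. In a moderated F test over the 13 groups, 25.2% of the 27244 probes tested were called, and 7 of the 36 members (19.4%) were. The called members were Ifi204 (adjusted p = 1.51e-06, limma), Ifit3 (0.00836), Tap2 (0.00844), B2m (0.0149), Irf5 (0.0214), Ifih1 (0.025) and Irf2 (0.0381). The median span between a member's lowest and highest group mean was 1.14 on the log2 scale, against 1.24 over all probes tested. With run as a random block, 2 members were called.

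**Figure D1:**
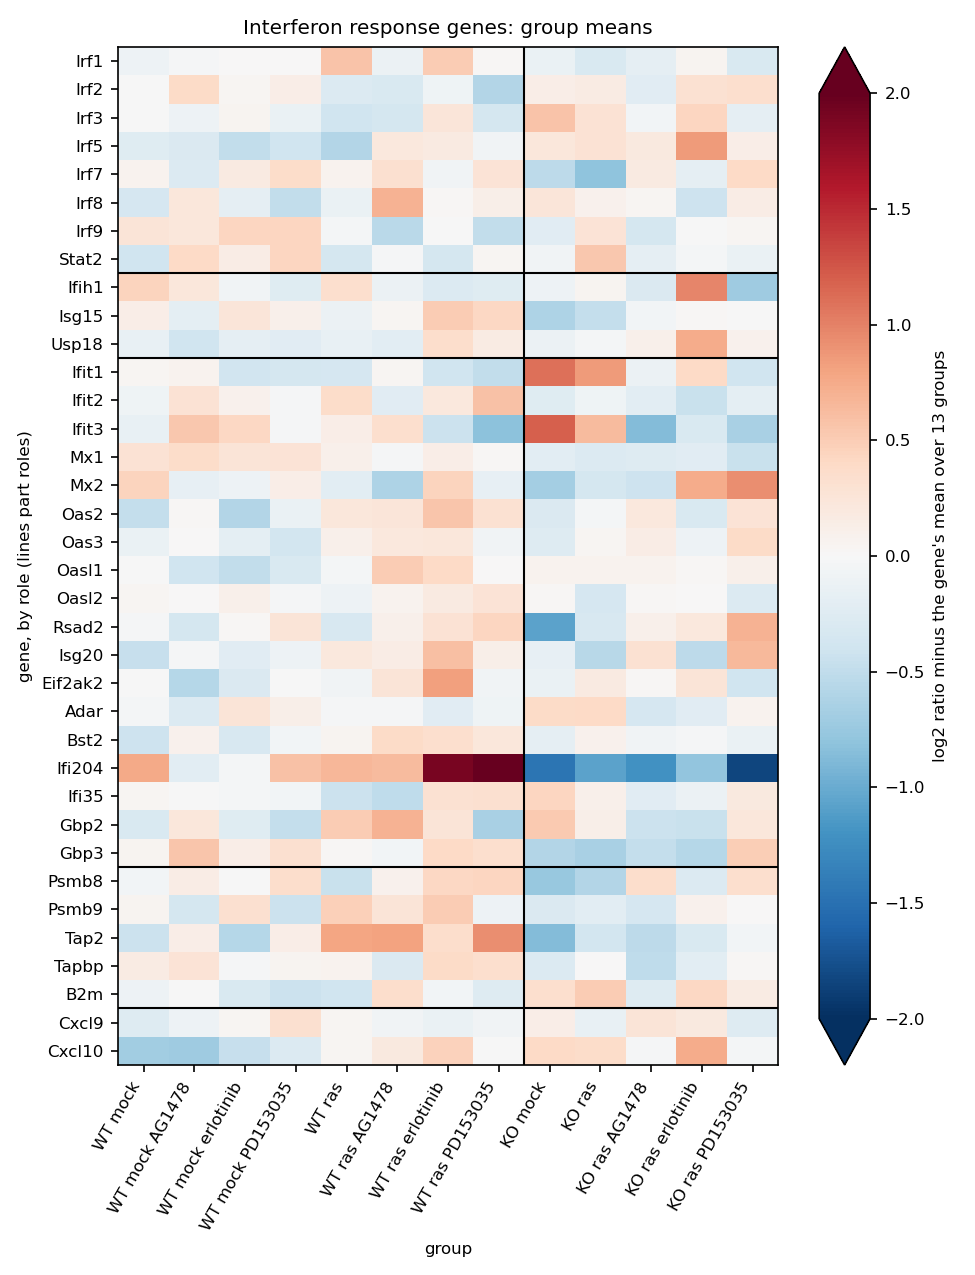
Group means of the 36 interferon response genes (rows, parted by role) in the 13 groups (columns, WT left and KO right of the line), as the log2 ratio minus the gene's own mean over the groups, with colours capped at 2 either way. Ifi204 has the strongest contrast between WT and KO columns, from 2.91 in WT ras with PD153035 to -0.99 in KO ras with PD153035 before centring.

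Ifi204 encodes p204, a DNA-binding protein of the PYHIN family that takes part in DNA sensing and growth control. Its log2 ratio was lower in KO than in WT cells in each of the 5 settings that hold both genotypes, and it was called in the presence of erlotinib and of PD153035. In WT ras cells with PD153035 the ratios were 2.93, 3.24, 3.29, 2.62 and 2.48. In KO ras cells with PD153035 they were -1.18, -0.30, -1.47, -1.01 and -0.97. The groups lay far apart, with every WT sample above every KO sample. The difference was -3.90 (SE 0.57, 95% interval -5.04 to -2.76, adjusted p = 1.76e-05 in limma), and both groups lie in the same run.

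With erlotinib, WT ras samples had ratios of 1.02, 3.44, 2.84, 3.17 and 3.23, and KO ras samples -0.97, 1.28, 1.26 and -1.31. A pair of KO samples exceeded the lowest WT sample, so the groups overlapped there. The difference was -2.67 (SE 0.60, adjusted p = 0.0191), and -2.79 (adjusted p = 0.00741) with run as a fixed block, these groups sharing their runs. The call was lost without KO ras with erlotinib repeat 1 (-2.31, adjusted p = 0.0982) and without repeat 4 (-2.21, adjusted p = 0.0787). Without repeat 4 no member was called.

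In mock cells, WT samples lay at 2.04, 1.27, 2.09 and 1.00 and KO samples at -0.78, 0.14 and -1.21. These groups did not overlap, but the difference of -2.23 (SE 0.69) missed the threshold (adjusted p = 0.0814). Ifit3, Irf3, Tapbp, Irf9 and Mx2 had no overlap in mock cells either, in both directions and none called. How many of all probes did the same was not counted, and with 3 and 4 samples groups part easily. Untreated ras cells gave 2.25, 1.57, -0.56, 2.15 and 2.12 in WT and 0.10, 0.00, -0.37, -1.44 and 0.63 in KO. Here 1 WT sample, repeat 3, lay among the KO samples. The difference was -1.72 (SE 0.57, adjusted p = 0.0953), and -2.25 (adjusted p = 0.0346) without that sample. With AG1478, WT ras samples lay at -0.07, 2.52, 0.24, 0.96 and 3.77, and the 5 KO ras samples with a value at -1.10, -0.49, 0.53, -0.30 and -0.47. The WT samples were widely spread and overlapped with KO, and the difference was -1.85 (SE 0.57, adjusted p = 0.0685). It was -1.86 (adjusted p = 0.041) by the labels' direction, -2.13 (adjusted p = 0.0965) without both disputed arrays and -0.93 (adjusted p = 0.628) with run as a fixed block. It was called without WT ras with AG1478 repeat 1 (-2.25, adjusted p = 0.0361) or repeat 3 (-2.17, adjusted p = 0.0299).

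Across all groups, 36 of the 39 WT samples and 22 of the 23 KO samples had an Ifi204 value. WT ratios ran from -1.08 to 3.77 with a median of 1.63, and 26 of them exceeded 1. KO ratios ran from -1.47 to 1.28 with a median of -0.48, and 2 of them exceeded 1. The ranges of the genotypes overlapped because of a few low WT and a few high KO samples. Within WT, group means ran from 0.64 ± 1.19 (SD, n = 4) in mock cells with AG1478 through 1.60 ± 0.55 in mock (n = 4) and 1.51 ± 1.19 in ras (n = 5) to 2.74 ± 0.99 in ras with erlotinib and 2.91 ± 0.36 in ras with PD153035 (n = 5 each). In KO cells they stayed between -0.99 ± 0.43 in ras with PD153035 (n = 5) and 0.06 ± 1.40 in ras with erlotinib (n = 4). In the order of all 13 means, neighbours differed by less than the larger of their SDs at every step but 2, that from WT mock with erlotinib (0.81 ± 0.61, n = 4) to WT mock with PD153035 (1.44 ± 0.51, n = 4) and that from WT mock to WT ras with erlotinib.

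Markers of other cell types are set beside this gene because macrophages and fibroblasts can also express it. In the PD153035 comparison 7 of 13 measured leukocyte and Langerhans cell markers were positive (median 0.03, 1 called lower), and 9 of 10 fibroblast markers were negative (median -0.57, none called in limma). In the erlotinib comparison 10 of 13 leukocyte markers (median -0.50) and 8 of 10 fibroblast markers (median -0.30) were negative, none called, while 14 of 15 keratinocyte markers (median 1.33, 3 called higher) and 7 of 7 melanocyte markers (median 1.20, none called) were positive. The median leukocyte marker of a sample lay at -0.75 ± 0.20 in WT and -0.83 ± 0.41 in KO ras cells with PD153035 (SD, n = 5 each), and at -0.72 ± 0.35 (n = 5) and -1.20 ± 0.57 (n = 4) with erlotinib. In mock cells, where Ifi204 was negative, the fibroblast markers were positive in 10 of 10 (median 1.14) and the leukocyte markers in 8 of 13 (median 0.79). Every other list was mostly positive there too. Keratinocyte markers were positive in 13 of 15 (median 0.83, 3 called higher), endothelial in 7 of 8 (median 0.95) and melanocyte in 5 of 7 (median 0.78). The part of other cell types in the Ifi204 difference was not tested. In bulk RNA, fewer cells of a type and less RNA per cell cannot be told apart. Other PYHIN genes were picked after these values were seen. With PD153035, 1 of 5 Ifi205 probes was called lower (-1.63, SE 0.37, adjusted p = 0.00914) and the other 4 lay between -1.01 and 0.30. In the same comparison the 2 Ifi203 probes lay at -0.57 and 0.36, and Ifi202b at 1.13 (SE 0.73). Ifi202b lay at -2.35 (SE 0.89, adjusted p = 0.149) in mock cells, and the called Ifi205 probe at -1.02 (SE 0.37, adjusted p = 0.128) in untreated ras cells.

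**Figure D2:**
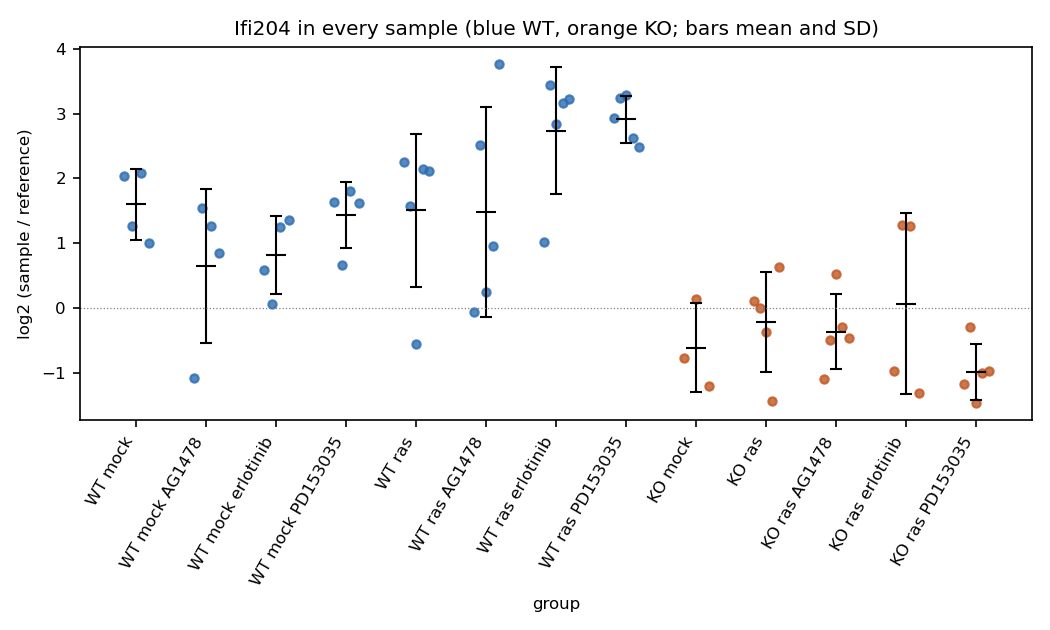
Ifi204 log2 ratio of sample over reference (vertical axis) in each sample of the 13 groups (WT blue, KO orange), with the mean and SD as bars. The 5 WT ras samples with PD153035 sit between 2.48 and 3.29, and the 5 KO samples with it between -1.47 and -0.30.

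The other members did not follow genotype together. In mock cells KO minus WT was positive for 18 of 36 members with a median of 0.01, against 0.05 over all probes, and none was called where 1.11% of all probes were. At an unadjusted p under 0.05 in limma, 2 members were higher and 2 lower (11.1%, against 17.7% of all probes). Ifit3, an antiviral protein with tetratricopeptide repeats, had the highest difference (1.25, SE 0.53, adjusted p = 0.2), followed by the T-cell chemokine Cxcl10 (0.97, SE 0.47) and Ifit1 (0.83, SE 0.62). The lowest were Ifi204, the dynamin-like GTPase Mx2 (-1.07, SE 0.57) and Rsad2, which encodes viperin (-1.0, SE 0.46). By role, the median was 0.21 for transcription factors, 0.01 for antiviral effectors and -0.41 for antigen processing.

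In ras cells 17 of 36 members were positive with a median of -0.07 (all probes 0.01). One member, B2m, was called higher (1 of 36, where 1.92% of all probes were called), and at an unadjusted p under 0.05 there were 5 higher and 4 lower (25%, against 16.8% of all probes). Besides B2m, the highest were Ifit1 (1.18, SE 0.51) and Stat2, the partner of IRF9 (0.89, SE 0.38). The lowest were Ifi204, the peptide transporter subunit Tap2 (-1.15, SE 0.42) and Irf7, the amplifier of type I interferon induction (-0.88, SE 0.40). Irf3, which starts interferon transcription after sensing, lay at 0.69 (SE 0.25, adjusted p = 0.137) with no overlap between the groups, as B2m did.

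With AG1478 in ras cells, 10 of 36 members were positive with a median of -0.15 (all probes -0.03). None was called where 2.22% of all probes were, and 0 higher and 4 lower passed an unadjusted p of 0.05 in limma (11.1%, against 15.4% of all probes). Beside Ifi204, Tap2 (-1.32, SE 0.40, adjusted p = 0.0653) and Ifit3 (-1.23, SE 0.42) were lowest, and Cxcl9 (0.33, SE 0.36), the ISG15 protease Usp18 (0.32, SE 0.33) and Ifi35 (0.29, SE 0.38) highest. By the labels' direction the median was 0.05, with 1 member called. Without both disputed arrays it was -0.18, with none called. Single samples mattered, since 1 member was called without WT ras with AG1478 repeat 1 or 3 or without KO ras with AG1478 repeat 2.

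With erlotinib, 13 of 36 were positive with a median of -0.32 (all probes -0.06), and Ifi204 was the 1 member called, where 0.963% of all probes were. The next lowest were the exonuclease Isg20 (-1.13, SE 0.52) and the guanylate-binding protein Gbp3 (-0.95, SE 0.53). Highest were Ifih1, the double-stranded RNA sensor MDA5 (1.20, SE 0.35), Ifit1 (0.89, SE 0.54) and Irf5 (0.67, SE 0.33). At an unadjusted p under 0.05 in limma, 2 members were higher and 2 lower (11.1%, against 15.6% of all probes). With PD153035, 18 of 36 were positive with a median of 0.01 (all probes -0.01). Ifi204 was called lower and Irf2 higher, where 1.38% of all probes were called. Mx2 (1.09, SE 0.47) and Gbp2 (0.87, SE 0.66) were the other highest, and Tap2 (-0.98, SE 0.42) and Ifit2 (-0.78, SE 0.34) the other lowest. Here 2 members were higher and 3 lower at an unadjusted p under 0.05 in limma (13.9%, against 10.4% of all probes).

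Irf2 encodes a factor that binds the same element as IRF1 and often represses it. In ras cells with PD153035 its ratios were -0.41, -0.38, -0.47, -0.29 and -0.07 in WT and 0.47, 0.69, 0.81, 0.64 and 0.43 in KO. All KO samples lay above all WT samples. The difference was 0.93 (SE 0.25, 95% interval 0.43 to 1.44, adjusted p = 0.0422). Its call was lost when any single one of the 10 samples was left out (differences 0.87 to 0.99, adjusted p 0.0531 to 0.115) and without the dye term (adjusted p = 0.0566). In the other settings KO and WT samples of Irf2 overlapped, for example at -0.32 to 1.17 in KO ras and -0.33 to 0.18 in WT ras.

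**Figure D3:**
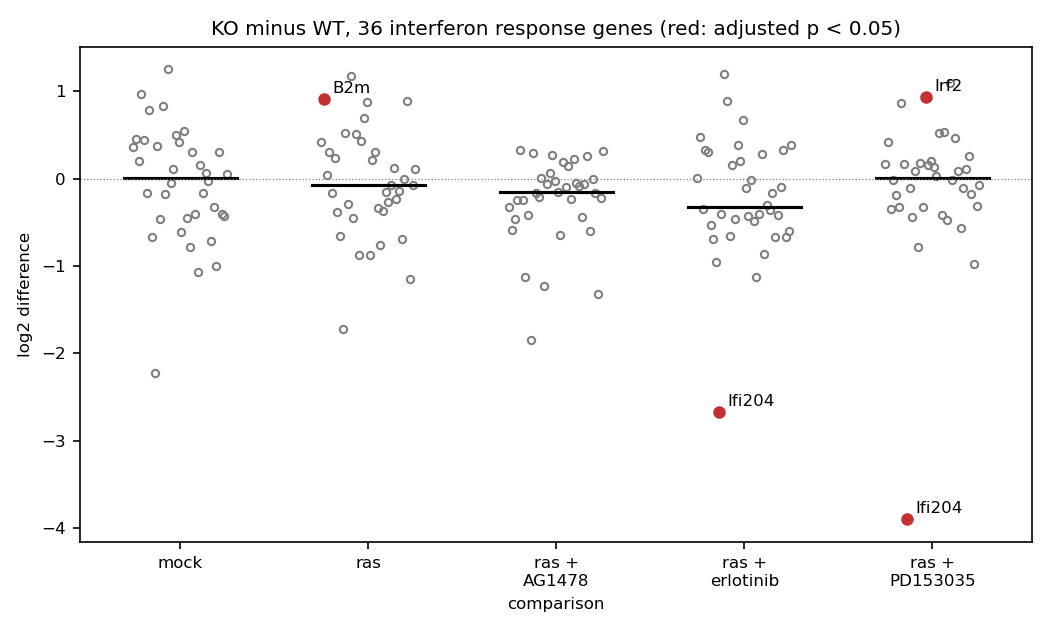
KO minus WT log2 difference (vertical axis) of each of the 36 interferon response genes in the 5 settings with both genotypes, with black bars for the medians and red points for genes with an adjusted p under 0.05. The medians lie between -0.32 and 0.01, and the red points are B2m in ras, Ifi204 with erlotinib, and Ifi204 and Irf2 with PD153035.

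B2m encodes the light chain that every class I molecule needs at the surface. In untreated ras cells its ratios were -1.87, -1.46, -1.60, -1.83 and -1.87 in WT and -0.85, -0.33, -1.02, -0.90 and -0.98 in KO. The groups did not overlap. The difference was 0.91 (SE 0.25, 95% interval 0.40 to 1.41, adjusted p = 0.0443). It was close to the threshold, being lost without any one of WT ras repeats 1, 3, 4 or 5 or KO ras repeats 1, 2 or 3 (0.78 to 0.95, adjusted p 0.0623 to 0.155). With run as a random block it was 0.85 (adjusted p = 0.431).

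Under AG1478 the KO samples were mostly the lower ones. WT ras samples then lay at -0.54, -1.37, -0.40, -0.92 and -1.70, and KO ras samples at -1.20, -1.45, -1.95, -1.41, -1.73 and -1.75, overlapping them. The inhibitor's difference was 0.74 (SE 0.25) in WT and -0.76 (SE 0.24, adjusted p = 0.134) in KO, neither called. The effect in KO minus that in WT was -1.5 (SE 0.35, adjusted p = 0.0306 in limma), the 1 member called of 36, where 0.874% of all probes were. Its untreated KO and WT ras samples are those of the B2m difference above, so the 2 calls are not independent. By the labels' direction of the 2 disputed arrays the difference of effects was -0.37 (adjusted p = 0.763), and without both arrays -1.43 (adjusted p = 0.0498). Treated and untreated groups share no run in either genotype, and with run as a random block it was -1.59 (adjusted p = 0.477). Leaving out any one of WT ras repeats 1 or 5, KO ras repeats 1, 2 or 3, WT ras with AG1478 repeat 1 or KO ras with AG1478 repeat 5 also lost the call (adjusted p 0.0539 to 0.0833).

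B2m is read by 56 probes whose mean ratios ran from -1.78 to 1.02, with 37 below -1. In KO minus WT ras, 47 of the 56 were positive with a median of 0.59, and 2 were called higher. For the difference of AG1478 effects, 46 of 54 tested were negative with a median of -0.54, and 4 were called lower. With all probes of a gene averaged, B2m differed by 0.54 (adjusted p = 0.0889) and by -0.73 (adjusted p = 0.119) in these comparisons.

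**Figure D4:**
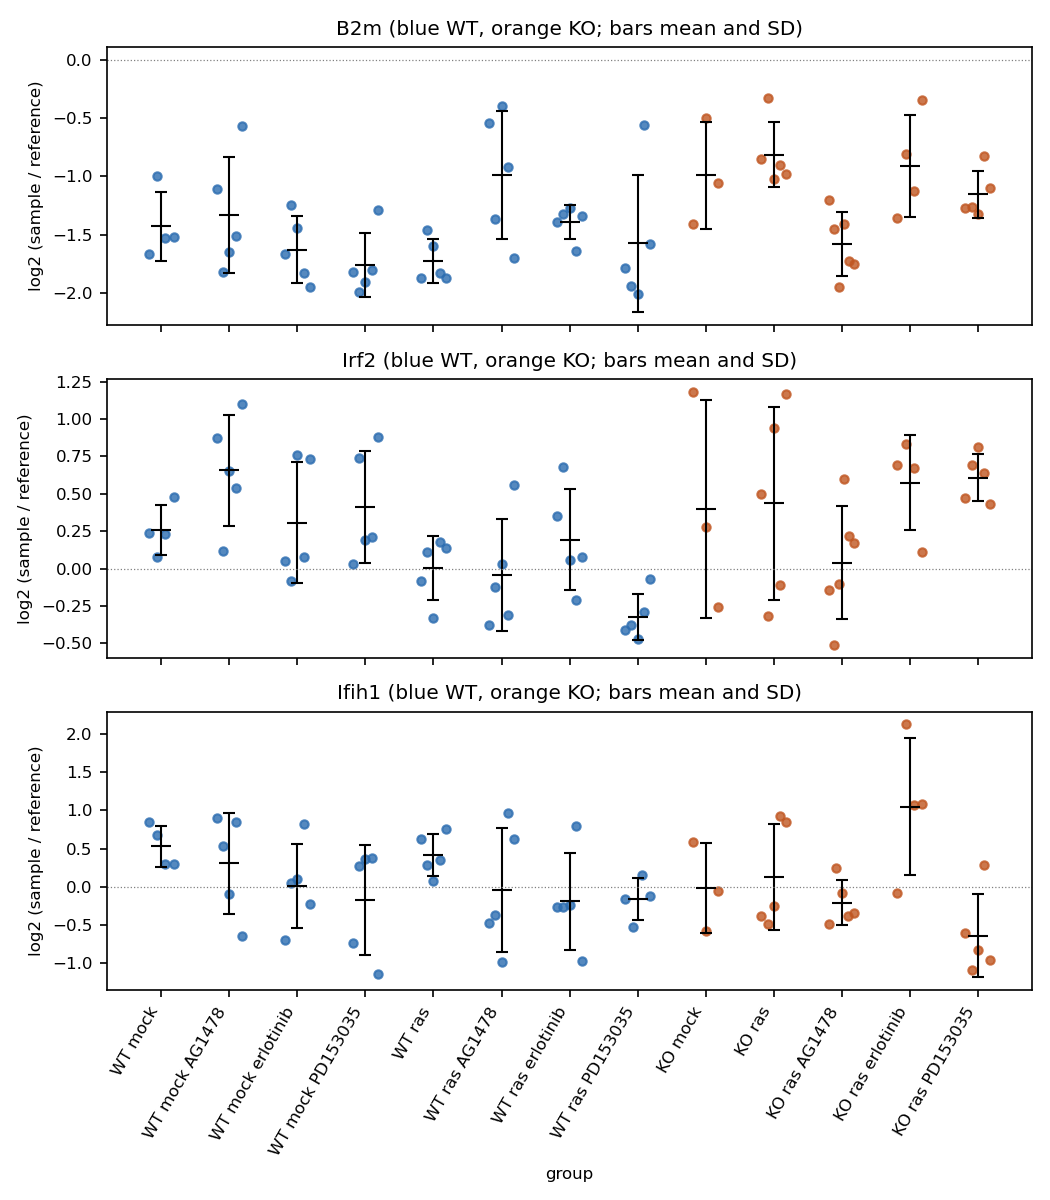
Log2 ratio of sample over reference (vertical axes) of B2m, Irf2 and Ifih1 in each sample of the 13 groups (WT blue, KO orange), with the mean and SD as bars. B2m lies at -1.87 to -1.46 in WT ras and -1.02 to -0.33 in KO ras, and Ifih1 at -0.08 to 2.12 in KO ras with erlotinib against -1.09 to 0.28 with PD153035.

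Transduction with v-rasHa changed no member past the threshold in untreated cells. In WT, 17 of 36 were positive with a median of -0.02 (all probes 0.04), none was called where 0.183% of all probes were, and 1 passed an unadjusted p of 0.05 in limma, upwards (6.68% of all probes passed). Tap2 was highest (1.20, SE 0.45, adjusted p = 0.581), with samples at 0.79, 0.40, 2.89, -0.18 and 0.76 in WT ras and 0.13, -1.50, -0.41 and 0.64 in WT mock. These overlapped. Gbp2 (0.83, SE 0.70) and Cxcl10 (0.82, SE 0.41) followed, and Mx2 (-0.68, SE 0.50), Ifi35 (-0.44, SE 0.42) and the immunoproteasome subunit Psmb8 (-0.37, SE 0.47) were lowest. The median 95% interval, not adjusted for the number of probes, reached 0.81 to either side. A change of a typical member had to be larger still to be called.

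In KO cells ras gave 25 of 36 positive members with a median of 0.11 (all probes 0.01). None was called where 0.539% of all probes were, and none passed an unadjusted p of 0.05 in limma, as 6.81% of all probes did. Rsad2 (0.67, SE 0.44), Stat2 (0.65, SE 0.45) and Tap2 (0.47, SE 0.49) were highest, Ifit3 (-0.43, SE 0.51), Isg20 (-0.36, SE 0.57) and Cxcl9 (-0.35, SE 0.42) lowest. All 5 measured antigen processing genes were positive, with a median of 0.20. The ras effect did not differ between genotypes for any member past the threshold (0.0108% of all probes called, no member at an unadjusted p under 0.05 in limma, where 5.9% of all probes were), with an interval of 1.21 to either side for the median member. Gbp2 (-1.17, SE 1.04) and Isg20 (-1.06, SE 0.77) had the lowest differences, Rsad2 (1.0, SE 0.60) and Mx2 (0.92, SE 0.74) the highest.

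Under an inhibitor, WT ras cells were compared with WT mock cells that had the same inhibitor. With AG1478, 21 of 36 members were positive with a median of 0.18 (all probes 0.06). None was called where 5.17% of all probes were, with 3 higher and 2 lower at an unadjusted p under 0.05 in limma (13.9%, against 19.5% of all probes). The highest were Oasl1, an oligoadenylate synthetase relative (0.90, SE 0.30), Cxcl10 (0.90, SE 0.39) and the kinase PKR, Eif2ak2 (0.83, SE 0.39), the lowest Irf9 (-0.76, SE 0.29), Irf2 (-0.70, SE 0.25) and Gbp3 (-0.62, SE 0.50). One member was called without WT mock with AG1478 repeat 4 or 5. With erlotinib, 26 of 36 were positive with a median of 0.27 (all probes 0.07), and Ifi204 was called higher (1.92, SE 0.60, adjusted p = 0.0489), where 5.24% of all probes were. Its ratios were 0.59, 0.06, 1.25 and 1.36 in the 4 WT mock samples with a value, overlapping the WT ras samples given above through their lowest, 1.02. Oas2 (1.15, SE 0.41) and Eif2ak2 (1.11, SE 0.39) followed, and Ifit3 (-0.84, SE 0.44), Stat2 (-0.49, SE 0.38) and the RNA editing enzyme Adar (-0.47, SE 0.28) were lowest. All 5 antigen processing genes were positive with a median of 0.41. At an unadjusted p under 0.05 in limma, 8 members were higher and 0 lower (22.2%, against 19.5% of all probes). The Ifi204 call was lost without any one of WT mock with erlotinib repeats 1, 2, 3 or 5 or WT ras with erlotinib repeats 2, 3, 4 or 5 (adjusted p 0.054 to 0.159), and without that last sample 4 other members were called. The groups share no run, and with run as a random block the difference was 1.99 (adjusted p = 0.288). Here 2 of 13 leukocyte markers were also called higher (median 0.02), and their part was not tested. With PD153035, 22 of 36 were positive with a median of 0.18 (all probes 0.04). None was called where 1.19% of all probes were, with 1 higher and 2 lower at an unadjusted p under 0.05 in limma (8.33%, against 11.7% of all probes). Ifi204 (1.47, SE 0.60, adjusted p = 0.291), Irf9 (-0.92, SE 0.29) and Irf2 (-0.73, SE 0.25) had no overlap between the groups. How many of all probes did the same was not counted, and these groups share no run.

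The 3 inhibitors bind the kinase site of EGFR, so their effects were read in WT cells and, where the receptor is missing, in KO ras cells. In WT mock cells no probe of the whole table was called for AG1478, erlotinib or PD153035, that is 0% each. Members were positive in 20, 21 and 18 of 36, with medians of 0.07, 0.08 and -0.01 against 0.03, 0.00 and 0.01 over all probes. At an unadjusted p under 0.05 in limma, 1 member was higher with AG1478, none with erlotinib, and 1 higher and 1 lower with PD153035, where 6.47%, 3.17% and 3.42% of all probes passed. Stat2 lay at 0.82 (SE 0.41) with AG1478, 0.57 (SE 0.41) with erlotinib and 0.85 (SE 0.41) with PD153035, and these values share their WT mock controls. Ifi204 lay at -0.94 (SE 0.64) with AG1478 and -0.77 (SE 0.64) with erlotinib, and Ifih1 at -0.75 (SE 0.35) with PD153035.

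In WT ras cells no member was called with any inhibitor, where 1.94% of all probes were called with AG1478, 3.4% with erlotinib and 0.66% with PD153035. Members were positive in 20, 25 and 21 of 36, with medians of 0.04, 0.29 and 0.07 against 0.05, 0.05 and 0.01. The count at an unadjusted p under 0.05 in limma was 3 higher with AG1478, 4 higher with erlotinib, and 1 higher and 1 lower with PD153035. These are 8.33%, 11.1% and 5.56% of the members, against 17.1%, 18.3% and 12.2% of all probes. AG1478 had its highest differences in Irf8 (0.82, SE 0.35), Irf5 (0.80, SE 0.31) and B2m, and its lowest in Irf1 (-0.68, SE 0.43), Ifit2 (-0.60, SE 0.34) and Irf9 (-0.50, SE 0.29). Erlotinib had Ifi204 (1.23, SE 0.57), Eif2ak2 (0.87, SE 0.39) and Psmb8 (0.85, SE 0.44) on top and Ifih1 (-0.61, SE 0.33), Ifit3 (-0.56, SE 0.44) and Tap2 (-0.44, SE 0.42) at the bottom. PD153035 had Ifi204 (1.41, SE 0.57, adjusted p = 0.275), Psmb8 (0.87, SE 0.44) and Rsad2 (0.76, SE 0.38) on top and Gbp2 (-1.14, SE 0.66), Ifit3 (-0.95, SE 0.44) and Ifih1 (-0.62, SE 0.35) at the bottom. The 3 comparisons share the WT ras controls, which share no run with any of the treated groups. Without WT ras with erlotinib repeat 5, 1 member was called for erlotinib.

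In KO ras cells no member was called with any inhibitor either. The share of all probes called was 0.225% with AG1478, 0.0543% with erlotinib and 4.83% with PD153035. Members were positive in 13, 21 and 19 of 36, with medians of -0.13, 0.07 and 0.02 against 0.00, 0.00 and 0.01 over all probes. At an unadjusted p under 0.05 in limma there were 2 higher and 5 lower with AG1478, 3 higher and 1 lower with erlotinib, and 6 higher and 3 lower with PD153035. These are 19.4%, 11.1% and 25% of the members, near the 14.1%, 11.8% and 22.3% of all probes. Ifit3 samples in untreated KO ras cells lay at 0.68, 0.80, 0.14, -1.96 and -0.79. Its difference was -1.53 (SE 0.42, adjusted p = 0.0906) with AG1478, -0.91 (SE 0.46) with erlotinib and -1.28 (SE 0.44) with PD153035, each against those same controls. Control repeat 4 (-1.96) lay inside all 3 treated ranges, and repeat 5 (-0.79) inside that of erlotinib (-2.30 to -0.25), so the groups overlapped. Ifit1 was also low with AG1478 (-1.02, SE 0.49) and PD153035 (-1.25, SE 0.51). The highest with AG1478 were Irf7 (0.97, SE 0.38), Psmb8 (0.93, SE 0.42) and Isg20 (0.85, SE 0.47), and with PD153035 Mx2 (1.29, SE 0.47), Isg20 (1.21, SE 0.49) and Irf7 (1.20, SE 0.40, adjusted p = 0.0629, no overlap). With erlotinib they were Mx2 (1.08, SE 0.50), Ifih1 (0.88, SE 0.35) and Usp18 (0.78, SE 0.37), while Adar (-0.60, SE 0.30) and Stat2 (-0.57, SE 0.41) were low beside Ifit3. The AG1478 median was 0.19 with 2 members called by the labels' direction, and -0.19 with none called without both disputed arrays. Leaving out KO ras repeat 5 gave 2 calls for AG1478 and 5 for PD153035, and leaving out KO ras repeat 4 gave 1 each. For PD153035, 1 member was called without its repeat 4 and 3 without its repeat 5.

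The difference of the erlotinib effect between KO and WT ras cells was called for no member (0.0653% of all probes), nor that of the PD153035 effect (0.0933%). Each had 1 member at an unadjusted p under 0.05 in limma (11.3% and 10.1% of all probes passed), Ifih1 with erlotinib (1.49, SE 0.48, adjusted p = 0.235) and Ifi204 with PD153035 (-2.18, SE 0.80, adjusted p = 0.331). Medians were -0.29 (all probes -0.05) and -0.12 (all probes -0.03).

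**Figure D5:**
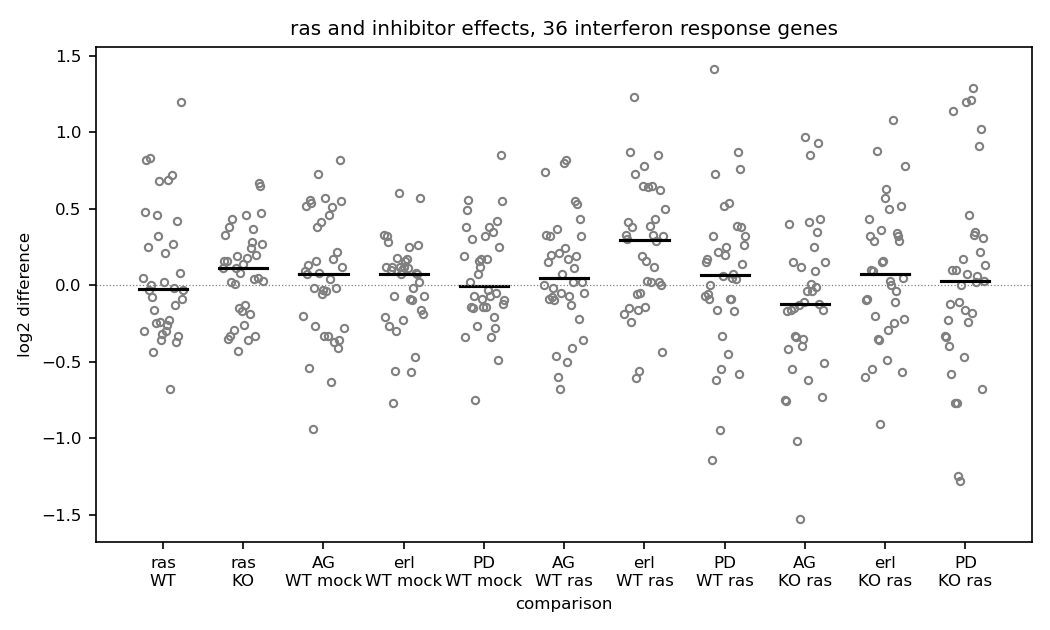
Log2 difference (vertical axis) of each of the 36 interferon response genes for ras in WT and KO cells and for AG1478 (AG), erlotinib (erl) and PD153035 (PD) against the untreated cells of the same kind, with black bars for the medians. The medians lie between -0.13 and 0.29, and no point has an adjusted p under 0.05.

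The inhibitors, all given at the same dose and time, were set against each other in 9 pairs. In WT mock cells 0% of probes were called in each of the 3 pairs. Members had 0, 1 and 0 differences at an unadjusted p under 0.05 in limma for AG1478 minus erlotinib, AG1478 minus PD153035 and erlotinib minus PD153035, the 1 being Irf8 (0.71, SE 0.35), where 3.1%, 3.05% and 1.14% of all probes passed. In WT ras cells no member was called either, where 0.897%, 1.29% and 0.176% of probes were, and unadjusted counts in limma were 4, 6 and 3 (11.1%, 16.7% and 8.33%, against 13.5%, 17.7% and 9.02% of all probes). AG1478 minus PD153035 had Gbp2 at 1.34 (SE 0.66), Ifit3 at 1.16 (SE 0.44, no overlap) and Ifi204 at -1.43 (SE 0.57). Ifi204 also lay at -1.26 (SE 0.57) for AG1478 minus erlotinib. The median member had an interval of 0.76 to either side in these 6 pairs, not adjusted for the number of probes. Differences between the compounds had to be larger still to be called, so the compounds are not shown to act alike.

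In KO ras cells, erlotinib and PD153035 differed in Ifih1. Ratios were -0.08, 2.12, 1.07 and 1.08 with erlotinib and -0.60, -1.09, -0.82, 0.28 and -0.96 with PD153035. The lowest erlotinib sample fell inside the PD153035 range. The difference was 1.65 (SE 0.35, 95% interval 0.95 to 2.36, adjusted p = 0.00282, and 0.013 adjusted over all 9 pairs together), the 1 member called of 36, where 5.82% of all probes were called. Isg20 (-1.18, SE 0.52) and Gbp3 (-1.05, SE 0.53) were lowest. In this comparison 4 of 15 keratinocyte markers (median 0.98) and 1 of 7 melanocyte markers (median 0.75, all positive) were called higher, and 1 of 10 fibroblast and 1 of 8 endothelial markers lower, and their part in the result was not tested. The groups share no run, and with run as a random block the Ifih1 difference was 1.39 (adjusted p = 0.382), so inhibitor and run cannot be told apart. AG1478 minus erlotinib had Ifih1 at -1.22 (SE 0.35, adjusted p = 0.117) and Mx2 at -1.12 (SE 0.48), with none called (0.243% of all probes) and 7 lower at an unadjusted p under 0.05 in limma (19.4%, against 11.9% of all probes). AG1478 minus PD153035 had Mx2 at -1.33 (SE 0.45), with none called (0.745%) and 3 lower unadjusted in limma (8.33%, against 9.78% of all probes). By the labels' direction of the 2 disputed arrays, 3 members and 1 member were called in these pairs, and the medians turned from -0.16 to 0.23 and from -0.06 to 0.22. Without both arrays none was called, and the medians were -0.23 and -0.17.

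Some members were read differently by a second probe. Irf9, the DNA-binding part of the interferon-activated complex, differed by 0.31 (SE 0.29) in KO minus WT ras by the probe used here. Its second probe was called lower there (-1.29, SE 0.36, adjusted p = 0.043), with group means of -0.85 ± 0.87 in KO ras and 0.44 ± 0.37 in WT ras (SD, n = 5 each). Oas2, an oligoadenylate synthetase, differed by -0.27 (SE 0.41) and by its second probe by -1.76 (SE 0.40, adjusted p = 0.0151). With PD153035 in KO ras cells the second probes of Irf9 (1.40, SE 0.36, adjusted p = 0.0171) and Oas2 (1.55, SE 0.40, adjusted p = 0.0178) were called higher, while the probes used here lay at -0.24 (SE 0.29) and 0.33 (SE 0.41). The second Oas2 probe was also called in the difference of AG1478 effects (2.60, SE 0.55, adjusted p = 0.0186), a value open to the disputed arrays. All these calls use the same untreated KO ras samples, where the second Oas2 probe lay at -0.62 ± 0.87 (SD, n = 5), so they are not independent. KO and WT ras share no run, nor do KO ras with and without PD153035. Other members also had probes of opposite sign, and these are not all listed. For ras in KO cells, Oas3 lay at 0.37 (SE 0.35) by the probe used here and at -0.88 (SE 0.39) by another, neither called. Which probe reads a gene better was not tested.

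Of 81 further genes of the pathway (interferons and receptors, kinases and STATs, sensing, other stimulated genes, antigen presentation), 64 were measured. None of the interferon receptors Ifnar1, Ifnar2, Ifngr1, Ifnlr1 and Il10rb was called in any comparison. Ifngr2 was called once, higher with erlotinib in WT ras cells (0.97, SE 0.28, adjusted p = 0.0401), where 3.4% of all probes were called. In KO minus WT, 1 of 64 was called in mock cells (1.11% of all probes), Epsti1 (2.23, SE 0.54), and 2 lower in ras cells (1.92%), the signalling brake Socs1 (-1.45, SE 0.38) and the peptide-loading factor Pdia3 (-1.04, SE 0.27). Pdia3 was also lower with PD153035 (-1.09, SE 0.27), and the nuclear body protein Pml higher with erlotinib (1.13, SE 0.27). These were 1 of 64 and 1 of 63, against 1.38% and 0.963% of all probes. Beside Ifngr2, Pml was called in WT ras cells given erlotinib, lower (-1.19, SE 0.26). That value shares its WT erlotinib samples with the KO minus WT value of Pml. In WT ras against mock cells Stat3 was lower under AG1478 (-1.04, SE 0.20) and PD153035 (-0.97, SE 0.20). Stat3 was the 1 of 64 called in each, against 5.17% and 1.19% of all probes. Under erlotinib Trim21 was lower (-1.11, SE 0.32) and Ly6e (0.88, SE 0.26) and Tor3a (1.5, SE 0.39) higher, where 5.24% of all probes were called. With PD153035 in KO ras cells, where 4.83% of all probes were called and the groups share no run, 5 of 64 were called, all lower. These were Socs3 (-1.33, SE 0.40), the RNA sensor Tlr3 (-1.44, SE 0.40), the kinase Tbk1 (-0.78, SE 0.23), Parp9 (-1.27, SE 0.25) and the peptide trimmer Erap1 (-0.87, SE 0.25). Erlotinib exceeded PD153035 in KO ras cells for 6 of 63, where 5.82% of all probes were called and the groups again share no run, namely Socs3 (2.55, SE 0.43), Ifitm3 (1.80, SE 0.55), Parp9 (1.52, SE 0.27), Socs1 (1.33, SE 0.40), Erap1 (1.07, SE 0.26) and Tbk1 (0.83, SE 0.24). Socs3, Parp9, Erap1 and Tbk1 were also called in the comparison before. Both comparisons use the same KO ras samples with PD153035, so these calls are not independent. AG1478 exceeded PD153035 in KO ras cells for Socs3 (1.47, SE 0.39, adjusted p = 0.0485 in limma), the 1 of 64 called, against 0.745% of all probes. This value uses those PD153035 samples too. It is open to the disputed arrays, and no value by the labels' direction is given for it. The erlotinib effect on Socs1 was larger in KO than in WT ras cells (2.51, SE 0.55, adjusted p = 0.0472 in limma), where 0.0653% of all probes were called. That value shares its untreated KO and WT ras samples with the KO minus WT value of Socs1. Its KO samples with erlotinib are those of the Socs1 value against PD153035.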

How the data were processed

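The authors deposited 1 log ratio of both dyes per probe and array, with array medians from -0.072 to 0.067. Log2 is assumed for the deposited ratios. Neither their log base nor their normalization is given in the sources used here. Per the labels' protocols, Trizol RNA was labelled indirectly with Cy3 or Cy5 against a reference in the other dye, with 12 arrays reversed. Arrays held 24860 to 28047 values, and array number limits the precision.

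Each array was oriented as sample over reference according to whether it correlated positively or negatively with the per-probe median of forward-labelled arrays. The 2 WT mock arrays labelled repeat 1 (correlation 0.834) were averaged, giving 62 samples of 63 arrays. Of 28049 probes, 20925 have 1 symbol, 159 several and 6965 none. Differences were fitted with limma 3.58.1 (R 4.3.3, statmod 1.5.0) over 13 groups with a dye term, and adjusted by Benjamini-Hochberg over the probes with values on at least 60% of the arrays of each group. Missing values make the fitted SEs approximate. Missing ratios were not imputed. Motifs and figures used Python 3.11.15 and matplotlib 3.10.9. The fit was tested on simulated data. Members and lists were chosen with earlier results of these data known. The text names every called member and the members with the largest differences in each direction. Of the pathway list it names the called genes and the receptors. Second probes are described for Irf9 and Oas2, and other members with probes of opposite sign are not all listed. Alternatives were the dye term, repeat 1 arrays apart, quantile normalization, 2 filters, averaged probes, the disputed arrays, run and replicate blocks, and leaving out each sample.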

Additional observations from a re-analysis of the deposited data

Results flagged for a closer look

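In 5 of 48 groups tested, 1 sample of Ifi204, B2m, Irf2 or Ifih1 stood far from the rest by Dixon's gap test, where chance flags about 1 in 20. For Ifi204 these were WT mock with PD153035 repeat 3 (0.67, the others 1.62 to 1.81), WT ras repeat 3 (-0.56, the others 1.57 to 2.25) and WT ras with erlotinib repeat 1 (1.02, the others 2.84 to 3.44), each the lowest of its group. For B2m they were WT mock with PD153035 repeat 5 (-1.29, the others -1.99 to -1.8) and KO ras repeat 2 (-0.33, the others -1.02 to -0.85), each the highest.

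The effect of AG1478 on B2m in ras cells differed between genotypes by -1.5 on the log2 scale (KO minus WT, adjusted p = 0.0306, limma). This contrast shares its untreated samples with the B2m call in KO minus WT ras cells. By the labels' direction of the 2 disputed arrays the difference was -0.37 (adjusted p = 0.763), and without both arrays it was -1.43 (adjusted p = 0.0498). With run as a random block it was -1.59 (adjusted p = 0.477).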

How the results depend on the processing

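Ifi204 in KO minus WT ras cells was called under all 10 alternatives that kept every sample or left out the disputed arrays and could test it, both with PD153035 (-4.06 to -3.9, adjusted p 2.96e-07 to 4.22e-05) and with erlotinib (-2.79 to -2.36, adjusted p 0.00741 to 0.033), and no called value changed sign. Ifih1 kept its call in 8 of 9, Irf2 in 10 of 11, B2m in 4 of 10 (KO minus WT ras) and 7 of 10 (AG1478 effect), and Ifi204 in WT ras under erlotinib in 3 of 9. Other counts of called members changed as follows, and the cause was not tested. Without the dye term they were 0 in KO minus WT ras, 0 in ras under erlotinib and 1 in KO minus WT with PD153035. With the repeat 1 arrays apart, 1 was called in KO minus WT mock. Quantile normalization gave 1 in KO minus WT mock, 0 in KO minus WT ras, 1 with AG1478 in KO ras, 3 in KO minus WT with AG1478, 1 in ras under AG1478, 4 with PD153035 in KO ras and 2 in AG1478 minus PD153035 in WT ras. Averaged probes gave 0 in KO minus WT ras, 0 in the AG1478 effect and 1 in ras under AG1478. With only probes measured on every array, which drops those of Ifi204 and Ifih1, they were 0 in KO minus WT with erlotinib, 0 in ras under erlotinib, 1 in KO minus WT with PD153035 and 0 in erlotinib minus PD153035.

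By the labels' direction, counts were 0 in KO minus WT ras, 2 with AG1478 in KO ras, 1 in KO minus WT with AG1478, 0 in the AG1478 effect, 0 in ras under erlotinib, 3 in AG1478 minus erlotinib and 1 in AG1478 minus PD153035 in KO ras. The medians were then 0.19 with AG1478 in KO ras, 0.05 in KO minus WT with AG1478, 0.18 in the AG1478 effect, and 0.23 and 0.22 in those pairs. Without both disputed arrays, 0 were called in ras under erlotinib. Run as a random block (correlation 0.26) gave 0 in KO minus WT ras, the AG1478 effect, ras under erlotinib and erlotinib minus PD153035 in KO ras, and 2 in the F test. Run as a fixed block gave 1 in KO minus WT with AG1478, with a median of -0.03. Correlations of same-numbered samples ran from -0.66 to 0.69 and were not all above 0.1 in any comparison. In KO minus WT with PD153035 and in AG1478 minus PD153035 in WT mock, 4 of 5 pairs exceeded 0.1. Some pairing may therefore be present in part of the comparisons. With the replicate block KO minus WT ras had 0 called members (B2m 0.91, adjusted p = 0.0529 in limma).

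Leaving out 1 sample at a time, counts ran from 0 to 1 in KO minus WT ras, the AG1478 effect, erlotinib in WT ras, ras under AG1478, and KO minus WT with AG1478 or erlotinib. They ran from 0 to 4 in ras under erlotinib, 0 to 2 with AG1478 and 0 to 5 with PD153035 in KO ras, and 4 to 10 in the F test, and fell from 2 to 1 without any one sample in KO minus WT with PD153035. Ifi204 with erlotinib then ranged from -3.11 to -2.21 and lost its call without KO repeat 1 or 4 (adjusted p 0.0982 and 0.0787). Signal over background was not analysed here, and 3 to 6 samples a group limit the precision.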
